A study of Mus musculus with 4 samples.

Results

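Chromatin accessibility was examined at 10 genes of the insulin-like growth factor (IGF) axis in mesenchymal stem cells (MSCs) from the bones of old and young mice. The genes were Igf1, Igf2, H19, Igf1r, Igf2r, Igfbp2, Igfbp3, Igfbp4, Igfbp5 and Igfbp7. A peak was assigned to a gene when it overlapped the gene or the 5 kb upstream of its start in the GENCODE vM21 annotation, which gave 72 of the 117282 peaks in the table. The 10 genes were among 30790 annotated genes that had at least 1 peak under the same rule. ATAC-seq, in which a transposase cuts and tags open DNA, was performed on 2 samples of old MSCs (mice aged 18 to 22 months) and 2 samples of young MSCs (mice aged 3 to 5 months). Both groups were grown at 2% O2 only, and no genetic change or drug is named for either. The study's methods describe wild-type C57BL/6N males and cells sorted as CD45-, Ter-119-, Sca-1+ and CD140a+, in sections written for young animals, so whether the old samples followed the same steps in full is not stated. The labels do not say whether the samples of a group came from separate animals, so the p-values measure the spread between these samples, which may be technical.

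IGF1 and IGF2 are secreted growth factors that act on bone through the receptor encoded by Igf1r, while the receptor encoded by Igf2r takes up IGF2 and carries it to lysosomes. The IGF-binding proteins hold the ligands in the circulation and in the bone matrix and either limit or prolong their action. Igf2, H19 and Igf2r are imprinted genes, and the ATAC-seq values sum both parental alleles, which could not be separated.

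Each value is the number of counts in a peak per 10000000 counts of the library, and it was not divided by the width of the peak. Library totals lay between 28259470 and 32559794 counts, and 3 counts in a peak corresponded to a value between 0.921 and 1.06. Levels of genes are therefore given per kb of peak. Differences between old and young samples are given after division by RLE factors (between 0.817 for old replicate 1 and 1.15 for young replicate 2), which remove a shift shared by most peaks: without them, all peaks together had a median log2 fold change of -0.27. The share of counts in peaks was 43.8% and 50.3% in the old and 57.5% and 62.9% in the young samples. Both old samples were thus below both young samples. RLE scaling also removes any age difference shared by most peaks, and the source of the shift was not tested. The counts of the old samples differed more from each other (chi-square of 9.43 per degree of freedom) than those of the young samples (1.94). All 10 promoters of a mesenchymal marker list held a peak, with summed values between 2744 and 4190 in the 4 samples. Of 7 annotated blood cell markers 3 held a promoter peak (summed values 85.7 to 140), of 5 endothelial markers 2 did (32.2 to 41.2), and of 3 erythroid markers 2 did (66.8 to 107). Ptprc, Itgam, Cd79a, Cd3e, Cdh5, Tie1, Emcn and Hbb-bs had none.

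All 10 genes had open chromatin at or near at least 1 annotated start in both age groups. In levels per kb of peak, Igfbp7, whose protein binds IGFs weakly and is deposited in the extracellular matrix, was at the top. Its summed value per kb was 24.5 and 25.5 in the old samples and 28.2 and 31.4 in the young samples, with means of 24.99 ± 0.665 (SD, n = 2) and 29.8 ± 2.32 (SD, n = 2). Igfbp4, which encodes an inhibitory binding protein, followed with 17.1 and 26.0 per kb in old and 25.1 and 24.7 per kb in young samples. The receptors came next. Igf2r had 17.03 and 20.7 per kb in old and 19.7 and 19.9 per kb in young samples, and Igf1r had 15.1 and 20.4 per kb in old and 19.5 and 20.8 per kb in young samples. For both receptors old replicate 1 was the lowest of the 4 samples in these unscaled values, as it was for Igfbp7, Igfbp4, Igfbp2, Igfbp5 and Igfbp3.

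Igfbp2, Igfbp5, Igfbp3 and the ligand gene Igf1 formed the middle of the order, with means over the 4 samples of 17.5, 15.2, 15.1 and 14.4 per kb. At the bottom were Igf2 with a mean of 9.90 per kb and the non-coding RNA gene H19 with 8.75 per kb. Igf2 stood at 8.85 and 8.07 per kb in old and at 11.5 and 11.1 per kb in young samples. H19 stood at 9.39 and 8.0 per kb in old and at 9.59 and 8.03 per kb in young samples. Between neighbours in this order the values of the 4 samples overlapped, except that Igf1 was above Igf2 in every sample of the table. Among 17308 protein-coding genes with a peak, the level per kb of Igfbp7 was higher than in 60.7% of genes and that of Igf2 higher than in 5.21%. In summed values, which grow with the length of the gene, Igf1r was above 99.6% and Igfbp7 above 98.0% of these genes.

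**Figure D1:**
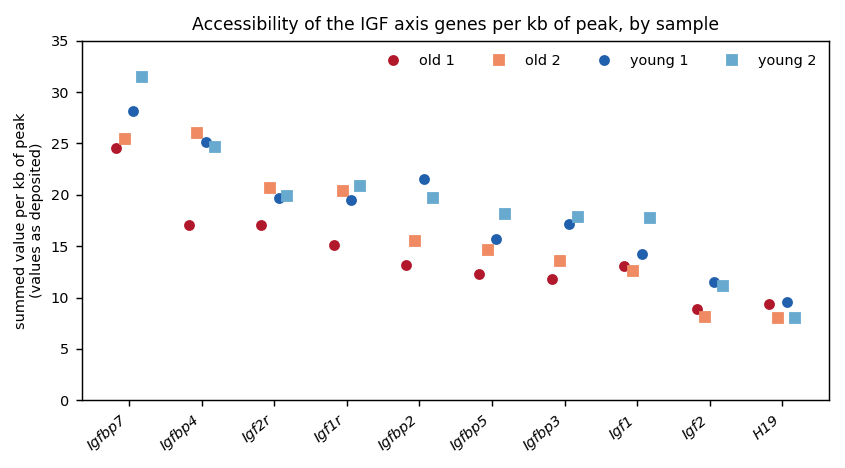
Summed value of all peaks of a gene per kb of peak (y axis, values as deposited) for the 10 IGF axis genes (x axis, ordered by the mean of the 4 samples), with 1 point per sample. Igfbp7 lies between 24.5 and 31.4 and H19 between 8.0 and 9.59, while most neighbours overlap.

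Summed over each gene, no difference between old and young MSCs passed the test. With limma, 0 of the 10 genes had an adjusted p under 0.01 (0.0065% of all genes did), the lowest adjusted p was 0.526, and 0 had an unadjusted p under 0.05, against 10.4% of all genes. After RLE scaling the summed values of Igf2r were 828 and 812 in the old and 729 and 687 in the young samples, so both old samples were above both young samples. The log2 fold change of Igf2r (old minus young) was 0.21 ± 0.11 (SE), with a 95% interval from -0.03 to 0.45. Igfbp2, the binding protein gene with the lowest estimate, had scaled sums of 108 and 103 in old and 135 and 115 in young samples, a log2 fold change of -0.24 with an interval from -0.60 to 0.12. Igfbp3, whose product carries most circulating IGF, had scaled sums of 101 and 93.4 in old and 112 and 109 in young samples (log2 fold change -0.18, interval -0.54 to 0.17). For Igfbp2 and Igfbp3 the old samples lay below each young sample. Such separation is common: at single peaks the groups did not overlap for 24.2% of all peaks (lower in old) and 23.2% (higher in old). No such share is given over all gene sums.

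For the ligands and the main signalling receptor the estimates were closer to 0. Igf1 had scaled sums of 323 and 252 in old and 269 and 311 in young samples, with a log2 fold change of -0.02 and an interval from -0.36 to 0.31. For Igf2 they were 67.2 and 49.5 in old and 66.7 and 59.9 in young samples (log2 fold change -0.13, interval -0.58 to 0.32). Igf1r gave 2035 and 2216 in old and 2001 and 1989 in young samples (log2 fold change 0.09, interval -0.13 to 0.31), with both old samples above both young samples by a small margin. The intervals of Igfbp4 (log2 fold change 0.05), Igfbp7 (0.04), Igfbp5 (-0.05) and H19 (0.27, interval -0.22 to 0.75) also included 0. Without RLE scaling the estimates of Igf2r, Igf1r, Igfbp4, Igfbp7 and H19 turned negative (-0.0769, -0.199, -0.239, -0.252 and -0.0169). Leaving out the factors lowers all large sums by a similar amount (the median over all peaks was then -0.27), so these signs follow from the scaling.

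H19 was covered by a single peak at chr7:142573801-142582400 (mm10), 8600 bp wide. This peak held the whole gene (chr7:142575529-142578143, minus strand), the 7 annotated starts of H19, the microRNA gene Mir675 inside it, and 4257 bp upstream of the start. Its value was 80.8 and 68.8 in old and 82.5 and 69.0 in young samples as deposited. After scaling it was 98.9 and 68.0 in old and 76.9 and 59.9 in young samples, and the groups overlapped (log2 fold change 0.27, interval -0.17 to 0.71, adjusted p = 0.561 with limma). The estimate was 0.001 and 0.54 without old replicates 1 and 2, and 0.45 and 0.09 without young replicates 1 and 2. The upstream stretch is where the imprinting control region of the H19 and Igf2 domain lies, at which the insulator protein CTCF is known to bind the unmethylated maternal allele. A search of both strands for the core letters GGNGGCAG gave 8 matches in the peak, 5 of them between 2 and 5 kb upstream of the start. That is 0.93 matches per kb, a density reached by 7.72% of all peaks of 5 kb or wider. The 5 upstream matches are shown because they mark where the peak reaches beyond the gene. Each is printed on the minus strand, the strand of H19, with the core in capitals and 11 bases on either side, and the number is the distance upstream of the start in bp.
H19 upstream 3891, chr7:142582023-142582052: agttgccgcgtGGTGGCAGcaaaatcgatt
H19 upstream 3766, chr7:142581898-142581927: aatgccactagGGGGGCAGgacacatgcat
H19 upstream 3647, chr7:142581779-142581808: ggttgccgcacGGCGGCAGtgaagtctcgt
H19 upstream 2621, chr7:142580753-142580782: tgctaccgcgcGGTGGCAGcatactcctat
H19 upstream 2166, chr7:142580298-142580327: cgatgccgcgtGGTGGCAGtacaatactac
A letter match is a description of the sequence and not a measured binding site.

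The microRNA gene within the H19 peak, Mir675, is processed from the first exon of H19. Its mature products are given from RefSeq (GRCm38.p6), with the seed (bases 2 to 8) in capitals, and the seeds of the arms differ.
mmu-miR-675-5p, chr7:142577112-142577133: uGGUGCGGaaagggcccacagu
mmu-miR-675-3p, chr7:142577078-142577099: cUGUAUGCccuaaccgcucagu

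Igf2 had 2 peaks, and 4 of its 9 annotated starts lay inside a peak. The wider peak at chr7:142655901-142661200 spans 5300 bp over downstream starts of the gene. Its scaled values were 55.6 and 40.4 in old and 59.7 and 51.4 in young samples, which overlapped (log2 fold change -0.22, interval -0.67 to 0.23, adjusted p = 0.656 with limma). The narrower peak at chr7:142663801-142664700 lies in an intron, and its scaled values were 11.6 and 9.10 in old and 6.93 and 8.56 in young samples. There both old samples were above both young samples, with a log2 fold change of 0.37 and an interval from -0.30 to 1.04 (adjusted p = 0.603 with limma). The intronic peak had 68.9 CpG per kb and the wider one 49.6, against a median of 10.9 over all peaks.

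RefSeq lists 4 Igf2 promoters, of which those starting at 142657496 and 142658804 were inside the wider peak and those starting at 142661271 and 142666816 were outside any peak. A sequence from 1 promoter inside and 1 outside a peak is shown, as 200 bases upstream of the start on the minus strand, with GC boxes (GGGCGG, on either strand) in capitals.
Igf2 inside the peak, chr7:142657497-142657696: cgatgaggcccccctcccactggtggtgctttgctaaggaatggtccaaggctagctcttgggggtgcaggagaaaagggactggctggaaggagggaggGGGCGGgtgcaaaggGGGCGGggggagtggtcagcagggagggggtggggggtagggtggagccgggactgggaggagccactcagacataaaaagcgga
Igf2 outside any peak, chr7:142666817-142667016: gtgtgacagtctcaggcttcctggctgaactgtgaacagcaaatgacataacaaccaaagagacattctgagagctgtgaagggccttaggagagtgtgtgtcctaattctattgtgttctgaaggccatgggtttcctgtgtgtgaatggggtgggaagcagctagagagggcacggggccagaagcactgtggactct
Over the RefSeq windows of 300 bases around the start, the inside promoter shown held 7 CpG and 2 GC boxes, and the outside one shown held 2 CpG and no GC box. The other inside promoter held 24 CpG and 1 GC box, and the other outside promoter, whose start lies just past the edge of the wider peak, held 14 CpG and no GC box, so CpG count did not separate promoters inside from those outside the peak. The GC box was present in 35.7% of the 32851 promoters in the table. In CpG count the inside promoters stood above 47.9% and 80.0% of these promoters and the outside ones above 14.1% and 63.7%.

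**Figure D2:**
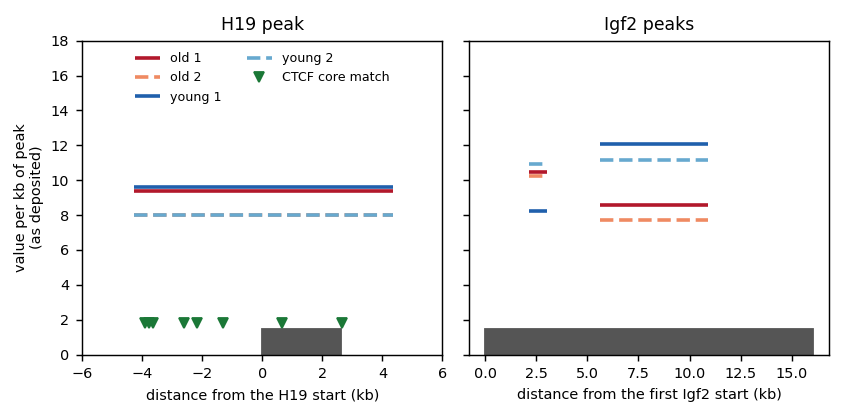
Value per kb of peak (y axis, values as deposited) over the extent of the H19 peak (left) and the Igf2 peaks (right), with 1 line per sample, against distance from the H19 start or from the first Igf2 start in kb along the gene (x axis). Grey blocks show the genes and triangles the 8 CTCF core matches; the lines of old replicate 2 and young replicate 2 coincide at 8.0 and 8.03 for H19.

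Igf1 had 8 peaks, and 7 of its 8 annotated starts lay inside a peak. The promoter peak at chr10:87857601-87861300 had scaled values of 76.6 and 53.7 in old and 54.8 and 62.6 in young samples, so the groups overlapped (log2 fold change 0.13, interval -0.31 to 0.57, adjusted p = 0.808 with limma). In the introns, the densest peak at chr10:87926301-87927900, 68836 bp from the start, had 27.0 and 25.5 in old and 24.4 and 32.5 in young samples (log2 fold change -0.10). Groups did not overlap at 1 Igf1 peak (12.5%, lower in old, against 24.2% of all peaks), at chr10:87900301-87903000, where old samples had 41.5 and 37.3 and young samples 43.6 and 47.8. Over the 8 Igf1 peaks the log2 fold changes lay between -0.21 and 0.16, and 0 had an unadjusted p under 0.05.

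Igf1r, the receptor for both ligands, carried 37 of the 72 peaks. It had 12.9 peaks per 100 kb, more than 93.1% of the 2420 protein-coding genes of 100 kb or longer with a peak (median 6.17 per 100 kb). The promoter peak at chr7:67950001-67955700 was the densest of the 72, at a mean of 44.9 per kb. Its deposited value was 191 and 281 in old and 287 and 265 in young samples, so that old replicate 1 was low. Scaled, it was 234 and 278 in old and 268 and 230 in young samples, and the groups overlapped (log2 fold change 0.04, interval -0.26 to 0.34, adjusted p = 0.925 with limma). The promoter sequence is shown because this was the densest peak. It is given as the 200 bases before the RefSeq start on the plus strand, with GC boxes in capitals.
Igf1r promoter, chr7:67952057-67952256: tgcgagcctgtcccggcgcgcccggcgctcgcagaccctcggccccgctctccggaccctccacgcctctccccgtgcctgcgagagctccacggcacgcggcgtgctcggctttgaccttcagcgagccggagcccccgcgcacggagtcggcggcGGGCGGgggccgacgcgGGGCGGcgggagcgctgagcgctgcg
The 300-base RefSeq window held 48 CpG, more than 98.8% of promoters, and 2 GC boxes.

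Inside Igf1r, most peaks lay in introns and their levels ranged from 7.04 per kb upward. Both old samples were above both young samples at 17 of the 37 peaks (45.9%) and below them at 4 (10.8%), and 16 overlapped. Over all peaks the corresponding shares were 23.2% and 24.2%. Peaks of 1 gene share the same libraries and are not independent, and no adjusted p for an Igf1r peak was under 0.05. The intronic peak at chr7:68162601-68163400, 210174 bp from the start, had the largest Igf1r estimate. Its scaled values were 8.13 and 16.7 in old and 5.61 and 4.43 in young samples, a log2 fold change of 1.09 ± 0.36 (SE) with an interval from 0.32 to 1.85 and an adjusted p of 0.142 with limma. Old replicate 2 was highest, and old replicate 1 was closer to the young samples than to it.

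The densest Igf1r peak outside promoters, at chr7:68005801-68007600, had scaled values of 64.6 and 82.8 in old and 55.4 and 47.8 in young samples (log2 fold change 0.50, interval 0.07 to 0.92, adjusted p = 0.227 with limma). At chr7:67957801-67962600, 7374 bp from the start, the values were 45.0 and 48.5 in old and 36.3 and 29.2 in young samples (log2 fold change 0.51, adjusted p = 0.256 with limma). At chr7:68047801-68050100, 96124 bp from the start, they were 42.8 and 47.9 in old and 30.03 and 31.6 in young samples (log2 fold change 0.54, adjusted p = 0.219 with limma). These peaks had both old samples above both young samples with unadjusted p under 0.05, and none passed the adjusted threshold.
In the other direction, the intronic peak at chr7:68159901-68161000 had 9.85 and 10.3 in old and 14.2 and 13.3 in young samples, with a log2 fold change of -0.41. It is the neighbour of the peak with the highest Igf1r estimate, which had the opposite sign. Over the 37 peaks, 24 estimates were above 0 and 13 below.

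**Figure D3:**
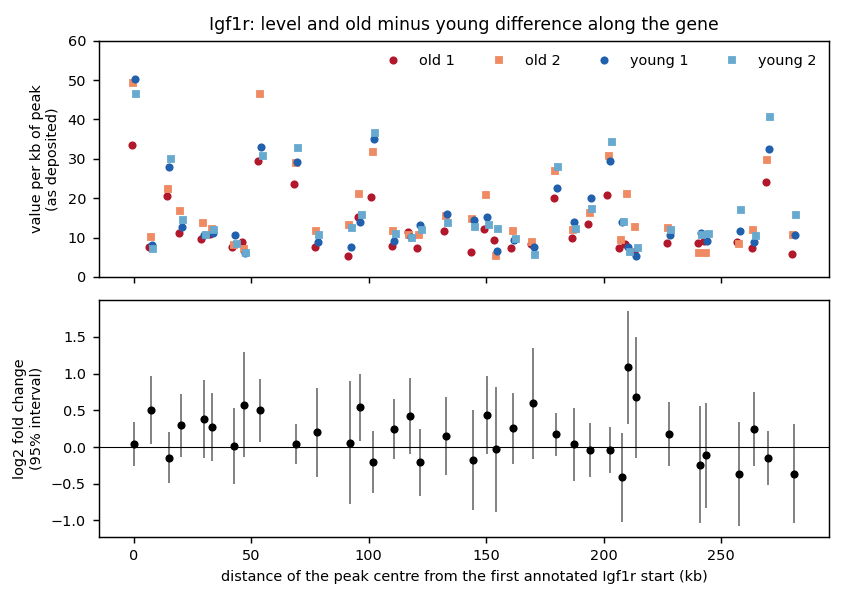
Upper panel, value per kb of peak (y axis, values as deposited) for each of the 37 Igf1r peaks and each sample against the distance of the peak centre from the first annotated Igf1r start in kb (x axis). Lower panel, log2 fold change (old minus young) with its 95% interval; the promoter peak is densest at a mean of 44.9 per kb, and estimates range from -0.41 to 1.09.

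The centre of the Igf1r peak with the largest estimate is shown on the plus strand because of the size of that estimate. None of the 5 motifs searched occurs in it.
Igf1r intron, chr7:68162881-68163120: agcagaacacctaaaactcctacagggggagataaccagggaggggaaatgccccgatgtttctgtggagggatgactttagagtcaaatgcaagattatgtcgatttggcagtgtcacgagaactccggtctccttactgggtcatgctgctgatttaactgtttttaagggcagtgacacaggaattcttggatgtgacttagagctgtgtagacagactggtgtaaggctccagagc

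Igf2r, which clears IGF2, had 9 peaks, of which 8 had estimates above 0. The main start lay in the peak at chr17:12765401-12770600, with scaled values of 77.9 and 66.1 in old and 70.3 and 52.9 in young samples and a log2 fold change of 0.23, and the groups overlapped. The peak over an alternative start at chr17:12749301-12761100 had 245 and 232 in old and 213 and 219 in young samples (log2 fold change 0.14, interval -0.15 to 0.43, adjusted p = 0.657 with limma). Airn, the antisense RNA known to silence Igf2r on the paternal allele, starts inside an Igf2r intron. The peak over its start, at chr17:12737101-12746600, had 229 and 210 in old and 218 and 193 in young samples, which overlapped (log2 fold change 0.10, interval -0.20 to 0.40).

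Peaks over Igf2r coding exons gave the widest estimates of this gene. The peak at chr17:12722501-12726600, densest outside promoters, had 131 and 159 in old and 109 and 106 in young samples (log2 fold change 0.42, interval 0.07 to 0.77, adjusted p = 0.211 with limma). At chr17:12711801-12713100 the values were 14.5 and 17.3 in old and 8.58 and 7.38 in young samples (log2 fold change 0.91, interval 0.29 to 1.54, adjusted p = 0.129 with limma). Against these, chr17:12717901-12718800 had 9.42 and 7.89 in old and 14.2 and 15.3 in young samples (log2 fold change -0.71, interval -1.33 to -0.09, adjusted p = 0.237 with limma). Between the latter peaks, chr17:12714101-12715600 had 21.8 and 10.6 in old and 9.57 and 10.6 in young samples, which overlapped (log2 fold change 0.55). Peaks of the same gene thus had estimates of opposite sign. The centre of the peak with the largest estimate is shown on the minus strand, with a match to the RUNX letters TGTGGTT in capitals. The exon label rests on the whole peak and not on the bases shown, and a letter match is not a measured binding site.
Igf2r exon region, chr17:12712331-12712570: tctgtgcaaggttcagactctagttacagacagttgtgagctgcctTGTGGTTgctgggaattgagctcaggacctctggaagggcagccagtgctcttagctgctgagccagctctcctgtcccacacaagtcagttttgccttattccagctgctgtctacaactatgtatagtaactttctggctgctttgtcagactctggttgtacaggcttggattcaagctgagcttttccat
RUNX2 is the master transcription factor of osteoblasts. A RUNX match was present in the central 300 bases of 9.72% of the 72 peaks and of 9.90% of all peaks.

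Igfbp2, whose protein binds IGF2 with preference, had 5 peaks. Its promoter peak at chr1:72823701-72826200 had scaled values of 29.97 and 28.5 in old and 38.0 and 29.2 in young samples, which overlapped (log2 fold change -0.18, interval -0.67 to 0.30, adjusted p = 0.746 with limma). The lowest estimate among the 72 peaks was at a 200 bp peak in an Igfbp2 intron, chr1:72832101-72832300, which had 2 and 1 counts in the old and 10 and 16 counts in the young samples. Relative to library totals, before RLE scaling, the old to young ratio was 0.109, with an exact counting interval from 0.0211 to 0.355 that covers counting error only. The fitted log2 fold change was -1.67 ± 0.47 (SE), with an interval from -2.67 to -0.68, and its adjusted p of 0.0833 was the lowest among the members in limma. With so few counts the estimate depended on the pseudocount, at -2.71 with 0.1 and -0.69 with 5, and was -2.65 with limma-voom. Directly beside it, the 2000 bp peak at chr1:72832301-72834300 had scaled values of 25.3 and 25.8 in old and 42.6 and 34.3 in young samples (log2 fold change -0.56, interval -1.04 to -0.08, adjusted p = 0.229 with limma). The pair form 1 stretch of open chromatin and are not independent. In contrast, an upstream peak at chr1:72821201-72821800 had 8.99 and 6.98 in old and 4.29 and 5.02 in young samples, a log2 fold change of 0.66. The sequence of the 200 bp peak, on the plus strand, is shown as it had the largest difference; none of the 5 motifs searched occurs in it.
Igfbp2 intron, chr1:72832101-72832300: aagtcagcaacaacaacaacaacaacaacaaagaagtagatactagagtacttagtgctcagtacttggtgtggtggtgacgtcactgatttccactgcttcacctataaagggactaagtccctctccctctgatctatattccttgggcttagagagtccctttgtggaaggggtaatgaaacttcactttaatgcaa

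The other binding protein genes had between 1 and 4 peaks each. Igfbp3 had a single peak, chr11:7209901-7216900, whose values were those of the gene. Igfbp4 had 2: the promoter peak at chr11:99039601-99048800 had scaled values of 185 and 269 in old and 191 and 181 in young samples, in which old replicate 2 stood above the other samples (log2 fold change 0.26, interval -0.09 to 0.61). The downstream peak at chr11:99052701-99060800 had 177 and 175 in old and 214 and 190 in young samples, both old below both young (log2 fold change -0.20, interval -0.50 to 0.11). Igfbp5, the most abundant IGF-binding protein gene of bone matrix, had a promoter peak at chr1:72868801-72876600 with 128 and 119 in old and 117 and 136 in young samples (log2 fold change -0.03, interval -0.37 to 0.31). Its upstream peak at chr1:72877501-72879500 had 40.2 and 47.3 in old and 24.1 and 34.8 in young samples (log2 fold change 0.57, interval 0.08 to 1.07, adjusted p = 0.234 with limma). At the 3′ end, chr1:72853601-72860000 had 79.6 and 76.8 in old and 105 and 94.8 in young samples (log2 fold change -0.35).

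Igfbp7 had the widest of the 72 peaks, 23000 bp at chr5:77353901-77376900, with scaled values of 754 and 595 in old and 679 and 732 in young samples, which overlapped (log2 fold change -0.07, interval -0.32 to 0.18). The Igfbp7 promoter peak at chr5:77398001-77408800 had 268 and 281 in old and 227 and 216 in young samples (log2 fold change 0.31, interval 0.02 to 0.59, adjusted p = 0.265 with limma). Its 300-base RefSeq window held 33 CpG, more than 91.4% of promoters, and 4 GC boxes. The sequence of the 200 bases before the start is shown for this promoter, on the minus strand with GC boxes of either strand in capitals.
Igfbp7 promoter, chr5:77408046-77408245: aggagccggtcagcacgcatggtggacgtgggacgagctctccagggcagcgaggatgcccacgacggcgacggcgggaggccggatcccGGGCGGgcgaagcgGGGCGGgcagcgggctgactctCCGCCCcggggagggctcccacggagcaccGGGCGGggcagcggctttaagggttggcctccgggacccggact
By distance between scaled log2 profiles over the 4 samples, the promoter peaks nearest to that of Igfbp7 were those of Clec2l, Ddx56 and Rasgef1c, with distances of 0.0228, 0.0243 and 0.0296. Among 19385 promoter peaks compared, 62 (0.320%) were nearer than the 0.0704 spread within the groups of Igfbp7 itself, so the order among them carries no weight.

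**Figure D4:**
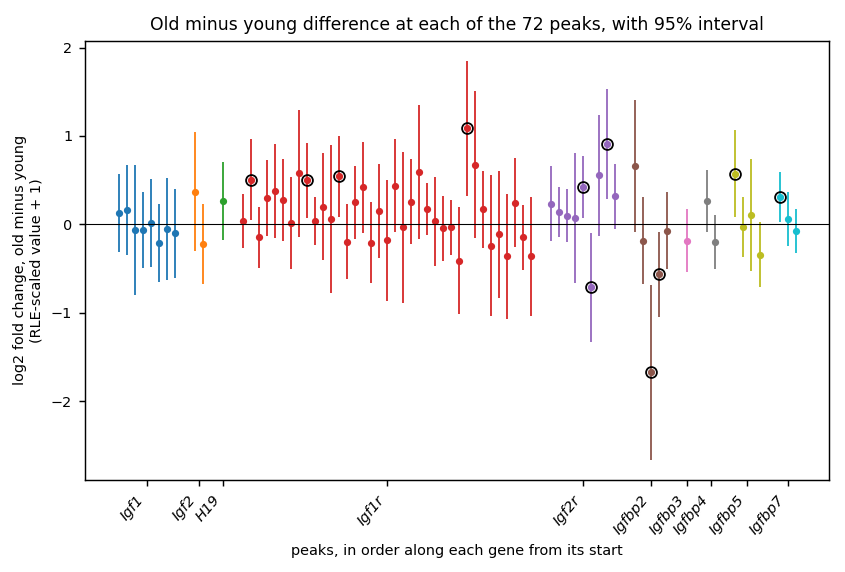
Log2 fold change (old minus young, RLE-scaled value plus 1, y axis) with its 95% interval for each of the 72 peaks, in order along each gene from its start (x axis, grouped by gene). Black rings mark the 11 peaks with an unadjusted p under 0.05; none passed an adjusted p of 0.05, and 8 of 10 genes had estimates on both sides of 0.

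Across the 72 peaks, 0 had an adjusted p under 0.01 with limma, against 66 of 117282 (0.0563%) among all peaks, and 0 had an adjusted p under 0.05 (1.12% of all peaks). Unadjusted p under 0.05 was found at 11 (15.3%), close to the 16.4% of all peaks, and these were 3 lower in old (4.17%, against 8.87%) and 8 higher in old (11.1%, against 7.49%). The groups did not overlap at 11 peaks lower in old (15.3%, against 24.2% of all peaks) and at 25 higher in old (34.7%, against 23.2%), and 17 of those 25 belonged to Igf1r. Among the 35 peaks of the other 9 genes, both old samples were above both young samples at 8 (22.9%) and below at 7 (20%). The median log2 fold change was 0.067 over the 72 peaks and 0.001 over all peaks, and 29 of the 72 (40.3%) were below 0 against 49.9% of all peaks. The widths of the 95% intervals were between 0.501 and 1.99, with a median of 0.961, which limits the size of difference that a single peak could show. Without old replicate 1, 5 of the 72 peaks passed an adjusted p of 0.01, while the count over all peaks rose from 66 to 10309. These 5 were the Igfbp2 200 bp peak (log2 fold change -1.93), the Igf1r peaks 210174 bp from the start (1.56) and densest outside promoters (0.675), the Igf2r peak densest outside promoters (0.563) and the Igfbp4 promoter peak (0.532).

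**Figure D5:**
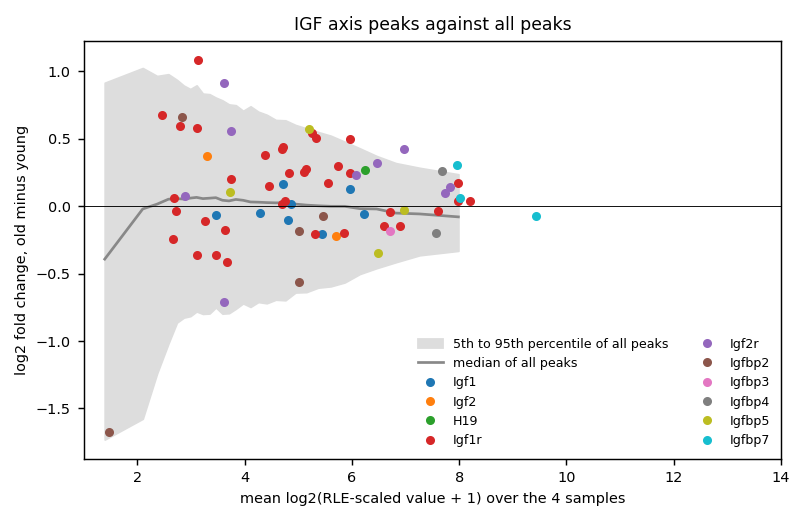
Log2 fold change (old minus young, y axis) against the mean log2(RLE-scaled value + 1) over the 4 samples (x axis) for the 72 peaks, coloured by gene. The grey band is the 5th to 95th percentile and the grey line the median of all 117282 peaks in bins of the mean; most of the coloured points lie inside the band.

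Of the 72 peaks 37 belonged to Igf1r, and in some medians and shares the 72 differed from all peaks. They were wider, with a median of 2450 bp against 1200 bp over all peaks, and 19 (26.4%) were 5 kb or wider against 4.67%. Their median level per kb, 12.8, was near the 13.4 of all peaks. By location, 43 (59.7%) were intronic against 36.1% of all peaks, which follows in part from choosing peaks by gene. CpG content was 14.4 per kb against 10.9. In the central 300 bases, AP-1 letters (TGANTCA) were present in 12.5% of the 72 peaks and 21.5% of all, C/EBP letters (TTGCNNAA) in 6.94% and 15.5%, the CTCF core in 13.9% and 10.1%, and the GC box in 8.33% and 9.73%. Over whole peaks the matches per kb were closer for C/EBP, at 0.472 in the 72 peaks and 0.481 in all, and for AP-1 they were 0.386 and 0.498.

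A further list of 34 genes linked to the pathway also gave no gene-level call. It included binding proteins, proteases, receptors, adaptors, downstream kinases, RNA-binding proteins, transcription factors and antisense RNAs. Igf2os had the same summed values as Igf2, and Airn shared peaks with Igf2r, so their estimates partly repeat those genes. Of the 34 genes, 32 had a peak, and 0 passed an adjusted p of 0.05 with limma (lowest 0.493). Estimates were below 0 for 15 and above 0 for 17, and the median log2 fold change was 0.005 against -0.010 for all genes. Among their 264 peaks that belonged to none of the 10 genes, 17 had an unadjusted p under 0.05 and were lower in old and 14 were higher (11.7% in all, against 16.4% of all peaks). An adjusted p under 0.05 was found at 2 of them, both lower in old, a share below the 1.12% of all peaks. The peak chr16:22067001-22068900 in Igf2bp2, which encodes an RNA-binding protein of the IGF2 mRNA, had scaled values of 29.97 and 22.5 in old and 72.3 and 54.6 in young samples (log2 fold change -1.24 ± 0.23 (SE), adjusted p = 0.0184 with limma). A peak in Irs2, an adaptor of the IGF1 and insulin receptors, lies at chr8:10998901-10999500, with 3 and 1 counts in old and 20 and 20 counts in young samples. Relative to library totals, before RLE scaling, its old to young ratio was 0.0943 with a counting interval from 0.0245 to 0.261 (fitted log2 fold change -2.07, adjusted p = 0.0370 with limma). Neither passed the adjusted threshold of 0.01. Summed over the gene, Igf2bp2 had a log2 fold change of -0.20 and Irs2 of -0.01.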

How the data were processed

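The authors deposited 1 score per peak and sample, named RPKM by them and written with decimal commas. Each deposited score was a whole count multiplied by 10000000 and divided by the library total (100% of values whole within 0.01 of a count), with no division by peak width. Per the labels the reads were mapped to mm10 with Bowtie2 and duplicates were handled with Picard. The study's methods name chromstaR for peaks, in a text about other culture conditions.

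Scores were divided by RLE factors, log2(score + 1) was taken, and old was compared with young by limma 3.58.1 in R 4.3.3 (trended, robust moderation; Benjamini-Hochberg over 117282 peaks, or over 30790 genes for sums). The threshold was an adjusted p of 0.01, as in the study. The step was tested on simulated data. In them both groups varied alike, whereas here the old samples differed more from each other than the young samples did. Intervals are 95%, and counting intervals and floors cover counting error only. No exact permutation of 2 against 2 samples can reach 0.05.

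Genes came from GENCODE vM21, sequences from GRCm38.p6 and RefSeq (promoters for 9 of the 10 genes, none used for H19). Named were, per gene, the promoter peak, the densest peak outside promoters and peaks with unadjusted p under 0.05, with other peaks named after their values were seen. The members and lists were chosen with earlier results of these data known. Alternatives were other scalings, pseudocounts 0.1 and 5, a filter on weak peaks, plain moderation, replicate blocks, a window without the 5 kb upstream, limma-voom on recovered counts and leaving out each sample.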

Additional observations from a re-analysis of the deposited data

How the results depend on the processing

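The count of 0 peaks past an adjusted p of 0.01 was the same under other scalings, pseudocounts, the filter on weak values, plain moderation, limma-voom on recovered counts and leaving out samples other than old replicate 1 (range over left-out samples 0 to 5). At an adjusted p of 0.05 the count of 0 became 1 with values as deposited, 1 with the replicate block and 2 with the crossed block. The counts over all 117282 peaks were 5202, 3623 and 7360 in these settings, against 1316 in the main fit. When either old replicate was left out, the count among the 72 peaks rose, as did the count over all peaks. The cause was not tested, and a group left with 1 sample was assumed to vary like the other. The 0 gene sums held in every alternative run. Peaks with unadjusted p under 0.05 and lower in old went from 3 to 6 with values as deposited (1 to 6 over left-out samples). Those higher in old went from 8 to 1 with values as deposited and to 5 with plain moderation (2 to 15 over left-out samples). The median log2 fold change of 0.067 became -0.184 with values as deposited, where the median over all peaks was -0.27, and lay between 0.0322 and 0.124 over left-out samples.

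Calls over all peaks went from 66 to 1385 with values as deposited, 24 with pseudocount 0.1, 15 without weak values, 0 with plain moderation (15.5% of peaks at unadjusted p under 0.05), 144 with limma-voom, and 10309, 1689, 10 and 11 without old replicates 1 and 2 and young replicates 1 and 2. With the replicate number as a replicate block, 0 of the 72 peaks passed 0.01, 3 were lower and 7 higher at unadjusted p under 0.05, and 1269 of all peaks passed. Same-numbered samples shared only a number (correlation of their deviations -0.0993). With the crossed replicate block, added after the data were examined, these were 0, 4, 8 and 3219.

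Signs turned with values as deposited for the promoter peaks of H19 (-0.0169), Igf1 (-0.155), Igf1r (-0.25) and Igfbp4 (-0.0239), the Igf2r peak over an alternative start (-0.148), the peak over the Airn start (-0.193), and the sums of H19 (-0.0169), Igf1r (-0.199), Igf2r (-0.0769), Igfbp4 (-0.239) and Igfbp7 (-0.252). With quantile normalization they turned for the Igfbp5 promoter (0.0149) and the sums of Igf1 (0.0185) and Igfbp5 (0.00111). Leaving out 1 sample turned promoter peaks of Igf1 (-0.123 to 0.382), Igf1r (-0.0841 to 0.16), Igf2 (-0.448 to 0.00638), Igfbp2 (-0.366 to 0.000101), Igfbp4 (-0.0048 to 0.532) and Igfbp5 (-0.133 to 0.0742). It also turned the densest other peaks of Igf1 (-0.299 to 0.0984), Igfbp2 (-0.149 to 0.00811) and Igfbp7 (-0.245 to 0.0972), and the sums of Igf1 (-0.199 to 0.157), Igf2 (-0.348 to 0.0871), Igfbp4 (-0.0974 to 0.196), Igfbp5 (-0.0973 to 0.00231) and Igfbp7 (-0.0908 to 0.164). None of these estimates had passed the test.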
